A study of Mus musculus with 35 samples.

Results

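Mouse tracheas that had been transplanted into MHC-compatible recipients (isografts) were compared between day 25 and day 14 after surgery. The comparison holds 10 of the 35 arrays of the study, 5 of day 25 isografts and 5 of day 14 isografts, chosen by the graft type and day in their labels. Each array measured total RNA of tracheal tissue. The operation was heterotopic, that is, the graft lay at a site other than the normal position of the trachea. The other groups, of 5 arrays each, were untransplanted (native) trachea, day 4 isografts, and allografts (tracheas in MHC-incompatible recipients) at days 4, 14 and 25. The labels used here give no strain, sex, age or drug treatment, and they do not say whether the arrays of a group came from separate animals, so every p-value measures the spread between these arrays, which may in part be technical. Values are log2 expression from probe sets, the groups of short probes that stand for a gene on an Affymetrix array.

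An isograft carries no foreign MHC, so it shows how a trachea heals from the operation itself. The airway surface is lined by secretory club cells, ciliated cells and basal stem cells, and the submucosal glands below it make mucus and defence proteins. After loss of its blood supply this lining is shed, and it is rebuilt from basal and gland duct cells. The comparison asks what still differed in such a graft between its middle and its late time point.

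With all arrays, no probe set passed the test. Of 12085 tested (log2 of 5 or more in at least 5 of the 10 arrays), 0 reached an adjusted p under 0.05 (0% called; limma with Benjamini-Hochberg adjustment over all tested probe sets), and the smallest adjusted p was 0.329. At an unadjusted p under 0.05 there were 813 (6.73%), of which 700 were higher at day 25 (5.79%) and 113 lower (0.935%). That split depended on how arrays were scaled. The median difference, day 25 minus day 14, over all tested probe sets was 0.09 on the log2 scale, and with each array centred on its median it was -0.04 and the split became 272 higher and 355 lower. With the deposited scaling 63.9% of all probe sets had a difference above 0, and with median centring 43.5%. For 9923 probe sets (82.1%) the 95% interval of the difference, unadjusted for the number of probe sets, lay within 2-fold in either direction.

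Of the 10 arrays, 1 stood apart. The median correlation of day 25 replicate 5 with its own group was 0.849 over the tested probe sets, against 0.911 to 0.945 for each of the other 9. It carried RNA of stratified squamous epithelium, the layered lining found in oesophagus and skin. Krt13, a keratin of the layered lining of the oesophagus, read 11.29 in day 25 replicate 5 and 3.00 to 3.17 in the other 4 day 25 arrays. At day 14 it read 3.17, 10.59, 10.84, 10.97 and 3.11 in replicates 1 to 5, so 3 of 5 day 14 arrays and 1 of 5 day 25 arrays held it. Native replicate 5 held it too, at 11.94. Of 15 squamous or injured epithelium markers on the array, 9 to 11 reached log2 5 in those 3 day 14 arrays and 12 in day 25 replicate 5, against 1 to 4 in the other 6. Lor (loricrin), a protein of the cornified skin surface, read 6.49, 9.44 and 9.49 in day 14 replicates 2, 3 and 4, 10.85 in day 25 replicate 5, and 3.08 to 3.59 in the other 6. Of 22 hair follicle and sebaceous gland markers, 0 or 1 reached log2 5 in each of the 10 arrays. The source of this tissue was not tested. Gene differences below are with all arrays unless stated otherwise. To them the value without day 25 replicate 5 is added where its sign differs or its size differs by over 1.5 times. Some differences are also given for the 6 arrays in which the squamous markers were low (2 of day 14 and 4 of day 25).

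**Figure D1:**
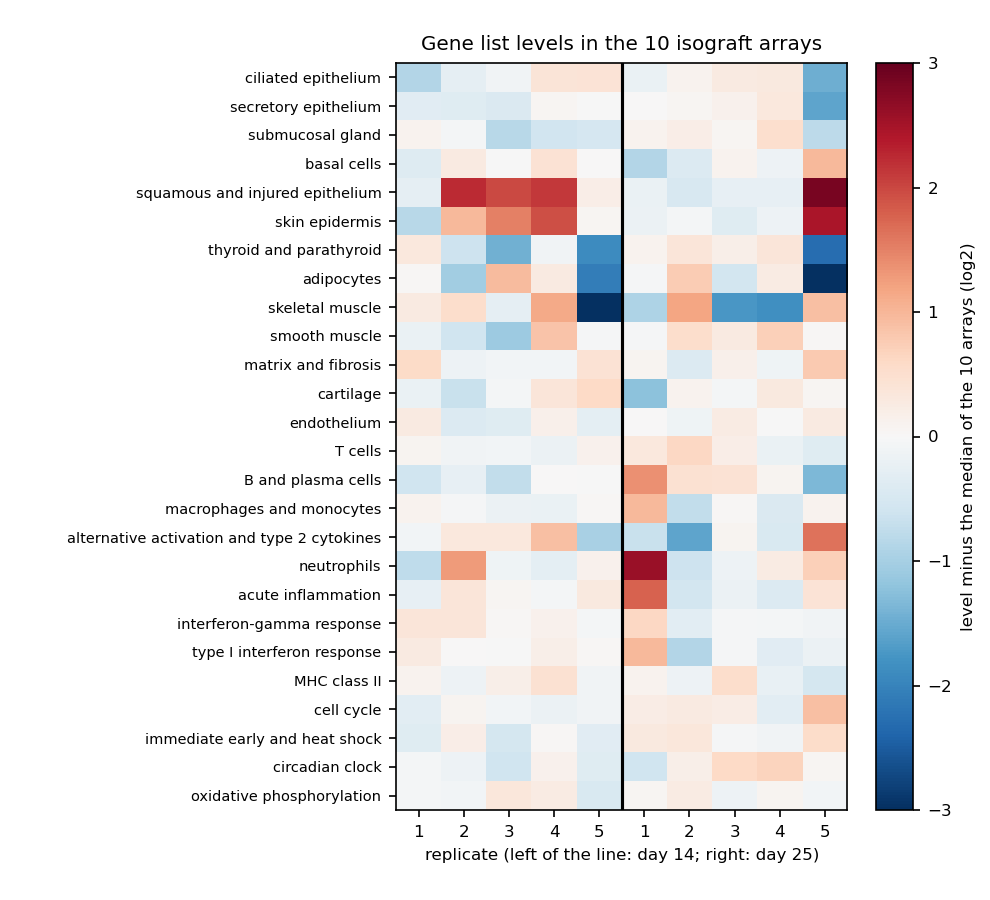
Level of each gene list (mean log2 value of its tested members) in each of the 10 isograft arrays, as the difference from the median of the 10 arrays; columns are replicates 1 to 5 of day 14 and of day 25. Day 25 replicate 5 is high for squamous and skin markers (list levels 8.78 and 8.75) and low for secretory, ciliated and thyroid markers (9.60, 5.75 and 7.39).

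Without day 25 replicate 5, 8 of the 12085 probe sets (0.0662%) were called, 7 higher at day 25 (0.0579%) and 1 lower (0.00827%). They stand for 5 named genes, Satb1 with 2 probe sets, and for 2 probe sets without a gene in the annotation used here. Satb1, Trbv1, Glcci1 and Dcpp1 rose between day 14 and day 25, and Mest fell. With all arrays none of the 5 was called, and day 25 replicate 5 lay inside the day 14 range or beyond it for each. Genes named here, apart from 1 member per gene list and a fixed set of markers, were chosen after their values were seen.

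Satb1, a chromatin organizer abundant in developing T cells, read 4.77, 5.47, 5.64, 5.37 and 6.42 in the 5 day 14 arrays. At day 25 it read 7.73, 9.69, 8.30, 7.95 and 5.69 in replicates 1 to 5. Replicates 1 to 4 were above every day 14 array, and replicate 5 was within the day 14 range. The difference was 2.34 ± 0.52 (log2, SE) with all arrays (adjusted p = 0.329, limma) and 2.88 ± 0.47 without replicate 5, a 7.37-fold higher level (adjusted p = 0.00575). The other Satb1 probe set gave 1.88 ± 0.57 with all arrays (adjusted p = 0.671) and 2.57 ± 0.49 without replicate 5 (adjusted p = 0.0273). Native arrays spread from 5.16 to 8.74, a range that holds 3 of the 4 day 25 values.

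Trbv1, a variable segment of the T cell receptor beta chain, read 5.66, 5.69, 6.27, 6.33 and 7.37 at day 14 and 8.29, 9.94, 9.16, 7.90 and 5.16 at day 25. Its probe set has a suffix (x) that marks probes shared with other transcripts. Replicate 5 was the lowest of all 10 arrays and the other 4 day 25 arrays were the highest. The difference was 1.82 ± 0.60 (adjusted p = 0.671) with all arrays and 2.56 ± 0.52 (adjusted p = 0.0415) without replicate 5. Glcci1, a transcript that glucocorticoids induce in thymocytes, read 5.21, 5.13, 5.12, 5.51 and 5.33 at day 14 and 5.95, 6.59, 6.93, 6.19 and 5.36 at day 25. Replicate 5 was again among the day 14 values. The difference was 0.94 ± 0.23 (adjusted p = 0.57) with all arrays and 1.15 ± 0.22 (adjusted p = 0.0295) without replicate 5.

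Day 25 replicate 2, the array highest for Satb1, also held RNA of some genes of immature thymocytes. Rag1, part of the recombinase that assembles antigen receptor genes, read 3.06 to 3.66 at day 14 and 3.85, 7.13, 5.57, 4.57 and 3.02 at day 25. Cd8b1, a coreceptor chain of cytotoxic T cells, read 3.77 to 4.58 at day 14 and 4.84, 6.86, 4.95, 4.47 and 3.74 at day 25. Both were highest in day 25 replicate 2. Ptcra, the surrogate alpha chain of immature thymocytes, was not raised there, at 3.92 against 3.80 to 4.41 at day 14, nor was Rag2, the partner of Rag1, at 4.25 against 3.73 to 4.92. Of 7 thymocyte genes, a list chosen after values were seen, 5 reached log2 5 in that array, 1 in replicate 3 and 0 in the other 8, and 2 and 4 did so in native replicates 1 and 3. None of the 7 passed the filter, so they have no test. Their part in the Satb1, Trbv1 and Glcci1 differences was not tested. In whole tissue, fewer cells of a type and less RNA per cell cannot be told apart.

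Dcpp1, a secreted gland protein, read 7.52, 7.99, 6.27, 5.82 and 6.03 at day 14 and 9.89, 10.03, 7.97, 9.76 and 6.35 at day 25. Day 25 replicates 1, 2 and 4 were clear of the day 14 range, replicate 3 was just below the highest day 14 array, and replicate 5 was inside the range. The difference was 2.07 ± 0.49 (adjusted p = 0.564) with all arrays and 2.69 ± 0.41 without replicate 5, or 6.43-fold (adjusted p = 0.0037). In the 6 arrays with low squamous markers it was 2.63 ± 0.50 (adjusted p = 0.0367). Native trachea held 13.92 ± 0.44 (SD, n = 5), and each of the 10 isograft arrays was below every native one. Dcpp1 has near-identical neighbours that the array may not separate.

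Mest, an imprinted gene of growing mesodermal tissue, read 9.01, 8.25, 8.98, 8.52 and 9.38 at day 14 and 7.02, 6.39, 7.68, 6.99 and 10.16 at day 25. Day 25 replicates 1 to 4 were below every day 14 array, and replicate 5 was above them all. The difference was -1.18 ± 0.43 (adjusted p = 0.671) with all arrays, -1.81 ± 0.31 (adjusted p = 0.00833) without replicate 5, and -2.17 ± 0.40 (adjusted p = 0.0325) in the 6 arrays with low squamous markers. Day 4 isografts held 9.54 ± 0.24 and native trachea 6.76 ± 0.72 (SD, n = 5 each). Of the 4 lower day 25 arrays, 3 were inside the native range of 5.89 to 7.49.

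**Figure D2:**
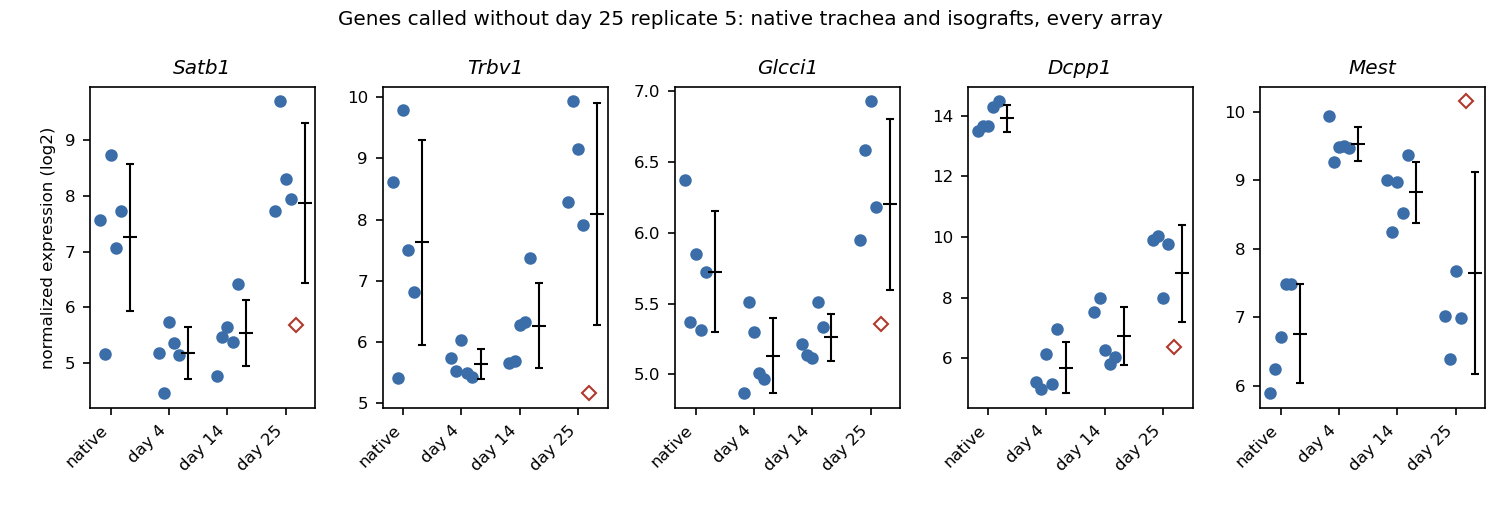
Log2 expression of the 5 named genes called without day 25 replicate 5, in each array of native trachea and of isografts at days 4, 14 and 25; bars are the mean and SD of 5 arrays and the open diamond is day 25 replicate 5. In Satb1, Trbv1, Glcci1 and Dcpp1 the diamond is the lowest day 25 array, and in Mest it is the highest.

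These calls rested on few arrays and on the fit of all 7 groups. When the 9 arrays were fitted alone none of the 8 probe sets was called, with adjusted p from 0.136 to 0.240 (limma). With each of the other 9 arrays also left out in turn, Satb1 (the probe set above), Dcpp1 and Mest were called in 8 of 9 fits, Glcci1 in 4 and Trbv1 in 3. The number of called probe sets fell to 0 without day 25 replicate 2 as well, and it was 3 without day 14 replicate 3, 4 without day 14 replicate 2, 5 without day 25 replicate 3, and 15 without day 14 replicate 5 or without day 25 replicate 1. With replicate 5 kept, leaving out day 25 replicate 1 gave 2 calls and leaving out day 25 replicate 2 gave 1. In the fit without replicate 5, Krt13 was high in 3 day 14 arrays and low in every day 25 array left. The 6 arrays with low squamous markers gave 4 called genes. Besides Dcpp1 and Mest these were C1qtnf3, a secreted protein of cartilage and stroma (-2.33 ± 0.42, adjusted p = 0.0325), and Rap1gap, a regulator of Rap signalling (1.59 ± 0.21, adjusted p = 0.000424). With all arrays C1qtnf3 and Rap1gap differed by only -1.21 and 0.77. Neither was called without replicate 5 (adjusted p = 0.0896 and 0.207, limma). Satb1 (2.82 ± 0.64, adjusted p = 0.198), Trbv1 (2.31 ± 0.69, adjusted p = 0.578) and Glcci1 (1.14 ± 0.30, adjusted p = 0.355) were not called in those 6 arrays.

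With all arrays, Peg3 and Satb1 had the smallest adjusted p. Peg3, another imprinted gene of mesenchymal cells, read 9.66, 9.37, 9.52, 9.26 and 10.03 at day 14 and 8.22, 8.91, 7.96, 8.67 and 8.57 at day 25. The groups did not overlap, and replicate 5 sat with its group. The difference was -1.10 ± 0.24 (adjusted p = 0.329) with all arrays and -1.13 ± 0.26 (adjusted p = 0.128) without replicate 5, and its 2 other probe sets gave -1.27 and -1.05 with all arrays. Mcm4, a subunit of the replication helicase, read 5.81 to 6.36 at day 14 and 6.44 to 7.47 at day 25, also without overlap (0.71 ± 0.19, adjusted p = 0.57). Over all tested probe sets, 50 (0.414%) had every day 25 array above every day 14 array and 20 (0.165%) had every one below.

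Among secretory genes of the surface, Scgb1a1, the main product of club cells, read 13.18, 13.80, 13.18, 13.76 and 14.11 at day 14 and 14.21, 14.65, 14.18, 14.38 and 11.49 at day 25. Day 25 replicates 1 to 4 were above every day 14 array and replicate 5 was below them. The difference was 0.18 ± 0.53 (adjusted p = 0.982) with all arrays and 0.75 ± 0.48 (adjusted p = 0.957) without replicate 5. Those 4 arrays were at 14.36 ± 0.22 (SD), beside 14.44 ± 0.07 in native trachea and 11.09 ± 0.56 in day 4 isografts. Bpifa1, a defence protein of the upper airway, was at 14.61 ± 0.14 at day 14 and 14.70 ± 0.30 at day 25 (SD, n = 5 each), with a 95% interval of the difference from -0.77 to 0.96 (difference 0.09, and 0.21 without replicate 5). Muc5b, a gel-forming mucin, was at 9.63 ± 0.82 and 9.65 ± 1.35 (0.02 ± 0.56, adjusted p = 0.997, with a difference of 0.56 without replicate 5), beside 11.55 ± 0.20 in native trachea.

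Of 18 tested secretory genes, 0 were called in either fit. Their median difference was 0.05 with all arrays and 0.33 without replicate 5, beside 0.09 for all probe sets in each fit. Only 5 of 15 gland genes on the array passed the filter. Their median difference was -0.08 with all arrays and 0.02 without replicate 5. Of these 5, Dcpp1 was the 1 called without replicate 5, beside 0.0662% of all probe sets. Ltf, the iron-binding lactoferrin of glands, was at 13.59 ± 0.11 and 13.52 ± 0.32 (-0.08 ± 0.53, adjusted p = 0.99, with a difference of 0.02 without replicate 5).

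Ciliated cell genes had 0 calls among 13. Foxj1, the master regulator of motile cilia, read 6.54, 7.54, 7.08, 7.61 and 7.71 at day 14 and 7.64, 8.03, 8.09, 8.20 and 6.68 at day 25 (0.43 ± 0.45, adjusted p = 0.902, with a difference of 0.69 without replicate 5). The groups overlapped, with replicate 5 the lowest day 25 array. Tppp3, a tubulin-binding protein of ciliated cells, differed by -0.30 ± 0.45 (adjusted p = 0.941, with a difference of 0.25 without replicate 5). The list median was -0.10 with 4 of 13 above 0 with all arrays, and 0.19 with 12 of 13 above 0 without replicate 5. Over all probe sets 63.9% and 66.2% were above 0 in these fits. Tppp3 differed by 0.54 ± 0.44 (adjusted p = 0.928) in the 6 arrays with low squamous markers. The list level was 7.0 to 7.5 in day 25 replicates 1 to 4, 5.8 in replicate 5, and 5.0 to 5.1 in day 4 isografts.

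Basal cell genes had 0 calls among 14. Krt5, the keratin that marks basal cells, read 8.37, 9.36, 9.50, 9.92 and 8.17 at day 14 and 7.09, 7.63, 8.89, 8.36 and 11.34 at day 25. Replicate 5 was the highest of the 10 arrays, and the 3 highest at day 14 were the arrays with Krt13. The difference was -0.40 ± 0.59 (adjusted p = 0.941) with all arrays, -1.07 ± 0.52 (adjusted p = 0.899) without replicate 5, and -0.27 ± 0.66 (adjusted p = 0.982) in the 6 arrays with low squamous markers. Krt14, its partner keratin, differed by -0.92 with all arrays and by -1.78 ± 0.69 (adjusted p = 0.794) without replicate 5. In the 6 arrays with low squamous markers Krt14 differed by -0.94 ± 0.91 (adjusted p = 0.937). Both keratins are also made by squamous epithelium. Dst, a linker of basal cell attachment sites, differed by 0.14 ± 0.29 (adjusted p = 0.961, with a difference of 0.28 without replicate 5).

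Only 5 of 15 squamous and 4 of 18 epidermis genes passed the filter, and 0 of them were called. The squamous list had a median of -0.46 with all arrays, -0.90 without replicate 5 and -0.15 in the 6 arrays. Krt10, a keratin of differentiating epidermis, differed by -0.05 ± 0.31 (adjusted p = 0.99, with a difference of -0.21 without replicate 5), and Anxa8, an annexin, by 0.11 ± 0.24 (adjusted p = 0.966, with a difference of 0.17 without replicate 5). Dmkn, a secreted epidermal protein, read 5.78 to 10.72 at day 14 and 8.05 to 11.05 at day 25 (-0.32 ± 1.15, adjusted p = 0.984, with a difference of -0.82 without replicate 5).

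Of 27 general epithelial genes, 0 were called. Sftpd, a collectin that binds microbes, differed by -0.10 ± 0.43 (adjusted p = 0.985, with a difference of 0.22 without replicate 5). Scnn1a, a subunit of the sodium channel that clears airway liquid, differed by 0.74 ± 0.32 (adjusted p = 0.671) with all arrays and 1.09 ± 0.29 (adjusted p = 0.261) without replicate 5. The 26 enzymes of xenobiotic and aldehyde metabolism, many of them club cell products, had 0 calls and medians of 0.12 and 0.46 in these fits. At an unadjusted p under 0.05 without replicate 5, 4 were higher and 1 lower, beside 4.4% and 1.08% of all probe sets. The detoxifying enzymes Cyp2b10, Gsta3 and Cyp4b1 differed by 1.15 ± 0.33 (adjusted p = 0.381), 1.11 ± 0.37 (adjusted p = 0.57) and 1.01 ± 0.35 (adjusted p = 0.655) without replicate 5. For each of the 3, those 4 day 25 arrays were all above day 14, as they were for 1.26% of all probe sets (0.314% were all below). Cyp2b10, Gsta3 and Cyp4b1 read 6.28, 6.48 and 8.73 in replicate 5, each below every day 14 array. Their differences with all arrays were therefore smaller. Cbr2, a carbonyl reductase, differed by 0.13 ± 0.55 (adjusted p = 0.984, with a difference of 0.35 without replicate 5).

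**Figure D3:**
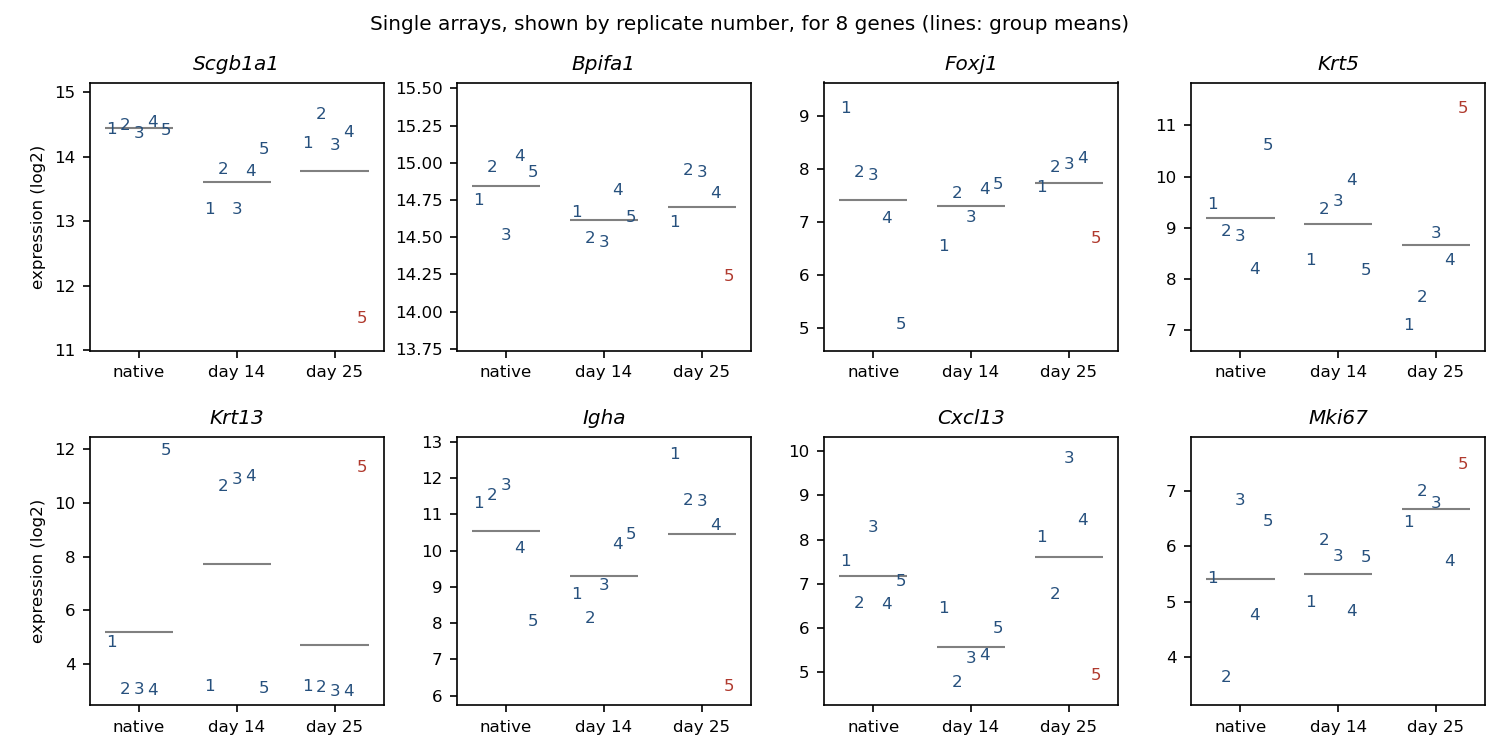
Log2 expression of 8 genes in each array of native trachea and of isografts at days 14 and 25, by replicate number; lines are group means. Day 25 replicate 5 is the lowest day 25 array for Scgb1a1, Igha and Cxcl13 and the highest for Krt5 and Krt13, and day 14 replicates 2, 3 and 4 also carry Krt13.

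Of 7 tested B and plasma cell genes, 0 were called. Igha, the heavy chain of the IgA antibodies that protect mucosal surfaces, read 8.78, 8.12, 9.03, 10.16 and 10.43 at day 14 and 12.64, 11.38, 11.35, 10.70 and 6.24 at day 25. Replicates 1 to 4 were above every day 14 array and replicate 5 was below them. The difference was 1.16 ± 0.78 (adjusted p = 0.837) with all arrays and 2.21 ± 0.62 (adjusted p = 0.344) without replicate 5. Jchain, which joins IgA into dimers, differed by 2.07 ± 0.53 (adjusted p = 0.225) without replicate 5. Jchain read 4.23 in replicate 5, below every day 14 array, so its difference with all arrays was smaller. Ighm, the IgM heavy chain, differed by 0.68 ± 0.76 (adjusted p = 0.914, with a difference of 1.40 without replicate 5) with all arrays, and its 3 other probe sets by -0.58 to 0.25, or -0.45 to 0.70 without replicate 5. Cxcl13, the chemokine that draws B cells into follicles, read 6.43, 4.75, 5.30, 5.37 and 5.98 at day 14 and 8.05, 6.76, 9.83, 8.44 and 4.91 at day 25. Replicates 1 to 4 were above every day 14 array. The difference was 2.03 ± 0.70 (adjusted p = 0.671) with all arrays and 2.70 ± 0.67 (adjusted p = 0.175) without replicate 5. Native arrays read 8.04 to 11.80 for Igha, 6.18 to 9.23 for Jchain and 6.53 to 8.26 for Cxcl13.

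T cell and cytotoxic lists had 0 calls among 7 and 3 tested genes. Cd3e, a chain of the T cell receptor complex, did not pass the filter, at 4.44 ± 0.35 and 4.70 ± 0.31. Thy1, shared by T cells and fibroblasts, differed by 0.57 ± 0.33 (adjusted p = 0.808), and Ccl5, a chemokine of activated T cells, by -0.43 ± 0.38 (adjusted p = 0.879). All 14 genes listed for immune checkpoints and regulatory T cells were under the filter.

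The interferon-gamma, type I interferon, MHC class I and class II lists had 0 calls among 18, 19, 8 and 6 genes, with medians of -0.16, -0.28, 0.03 and -0.14. Cxcl9, a chemokine induced by interferon-gamma, read 6.84, 6.33, 6.36, 4.82 and 5.34 at day 14 and 6.50, 4.98, 4.66, 5.89 and 4.14 at day 25 (-0.71 ± 0.41, adjusted p = 0.809, with a difference of -0.43 without replicate 5). The groups overlapped. Iigp1, an interferon-induced GTPase, differed by -0.62 ± 0.34 (adjusted p = 0.781), and Ifi27l2a, another interferon-induced gene, by -0.21 ± 0.62 (adjusted p = 0.982, with a difference of 0.46 without replicate 5). B2m, the light chain of class I, differed by -0.09 ± 0.16 (adjusted p = 0.951, with a difference of -0.02 without replicate 5) with a 95% interval from -0.43 to 0.24, and Cd74, the class II chaperone, by 0.00 ± 0.24 (adjusted p = 1, with a difference of 0.11 without replicate 5) with one from -0.50 to 0.49.

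Of 23 macrophage genes, 0 were called. Adgre1, the F4/80 surface protein, was at 8.13 ± 0.19 and 7.52 ± 0.41 without overlap (-0.61 ± 0.23, adjusted p = 0.671), and Lyz2, lysozyme, at 13.00 ± 0.43 and 13.49 ± 0.31 (0.48 ± 0.21, adjusted p = 0.681). Chil4, a chitinase-like protein of alternative activation, read 6.64, 9.73, 9.46, 10.68 and 6.12 at day 14 and 5.08, 4.83, 6.20, 6.19 and 12.99 at day 25, high in the same 4 arrays as Krt13. The difference was -1.47 ± 1.07 (adjusted p = 0.854) with all arrays, -2.95 ± 0.83 (adjusted p = 0.344) without replicate 5 and -0.80 ± 0.91 (adjusted p = 0.95) in the 6 arrays. Ccl8, a monocyte chemokine, differed by -0.25 ± 0.49 (adjusted p = 0.958, with a difference of -0.73 without replicate 5). Fscn1, an actin bundler of mature dendritic cells, read 10.11 to 10.47 at day 14, 9.32 to 9.45 in day 25 replicates 1 to 4 and 10.88 in replicate 5. It differed by -0.54 ± 0.24 (adjusted p = 0.681) with all arrays and -0.84 ± 0.20 (adjusted p = 0.158) without replicate 5. The 10 alternative activation, 7 dendritic cell and 4 mast cell genes had 0 calls, and Hdc, the histamine-forming enzyme of mast cells, differed by -0.36 ± 0.48 (adjusted p = 0.933, with a difference of 0.11 without replicate 5).

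Neutrophil, acute inflammation and complement lists had 0 calls among 7, 16 and 13 genes. S100a9, a calcium-binding protein of neutrophils, read 7.63, 10.93, 9.50, 9.24 and 8.49 at day 14 and 13.00, 8.66, 9.02, 9.96 and 10.21 at day 25 (1.01 ± 0.62, adjusted p = 0.822). Il1b, a cytokine of early inflammation, read 11.49 in day 25 replicate 1 and 7.03 to 7.74 in the other day 25 arrays, beside 6.62 to 8.12 at day 14. Both were highest in day 25 replicate 1. Nfkbia, the inhibitor of NF-kappaB, differed by 0.12 ± 0.24 (adjusted p = 0.961, with a difference of 0.25 without replicate 5), and Serping1, an inhibitor of complement, by 0.29 ± 0.26 (adjusted p = 0.884).

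Of 40 matrix genes, 0 were called. The median was -0.06 with all arrays, -0.26 without replicate 5 and -0.59 in the 6 arrays with low squamous markers. Col1a1, the main collagen chain of scar, read 13.29, 11.82, 12.58, 12.45 and 12.85 at day 14 and 12.47, 11.80, 12.88, 12.16 and 13.70 at day 25. The groups overlapped, and the difference was 0.00 ± 0.31 with a 95% interval from -0.63 to 0.64. Without replicate 5, the highest array, it was -0.27 ± 0.30 (adjusted p = 0.995), and in the 6 arrays it was -0.74 ± 0.38 (adjusted p = 0.819). Both groups had means above native trachea, at 10.74 ± 0.67. Col3a1, another fibrillar collagen, differed by -0.20 ± 0.19 (adjusted p = 0.891, with a difference of -0.36 without replicate 5), and by -0.72 ± 0.22 (adjusted p = 0.578) in the 6 arrays. Eln, the elastin precursor, was at 10.35 ± 0.26 and 9.45 ± 0.42 (-0.90 ± 0.29, adjusted p = 0.671).

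All 11 tested smooth muscle genes had differences above 0 under each of the 4 scalings, with 0 called. Over all probe sets the share above 0 was 63.9% as deposited and 43.5% with median centring. The median was 0.45, or 0.32 with median centring, and in the 6 arrays 10 of 11 were above 0. Acta2, smooth muscle actin, read 10.74, 10.90, 10.29, 11.06 and 10.78 at day 14 and 11.19, 11.22, 10.65, 11.49 and 10.82 at day 25 (0.32 ± 0.23, adjusted p = 0.847). The groups overlapped. Cnn1 and Actg2, of the contractile apparatus, differed by 1.16 ± 0.52 (adjusted p = 0.685) and 1.04 ± 0.44 (adjusted p = 0.671), and their day 25 means of 7.17 and 7.18 stood beside native means of 8.87 and 8.39.

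Cartilage, the rings that hold the trachea open, had 0 calls among 23 genes. Col2a1, its main collagen, read 11.93, 10.10, 11.50, 12.38 and 11.83 at day 14 and 9.79, 10.66, 10.94, 11.33 and 12.68 at day 25 (-0.47 ± 0.56, adjusted p = 0.923, with a difference of -0.87 without replicate 5). The groups overlapped, with the highest value in day 25 replicate 5. Col10a1, of hypertrophic cartilage, differed by 0.16 ± 0.57 (adjusted p = 0.984). Endothelial and nerve lists had 0 calls among 21 and 10 genes. Aqp1, a water channel of vessels, differed by 0.14 ± 0.39 (adjusted p = 0.977, with a difference of 0.35 without replicate 5), and Pmp22, a myelin protein, by -0.07 ± 0.26 (adjusted p = 0.984, with a difference of 0.06 without replicate 5).

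Of 20 tested cell cycle genes, 7 were higher and 0 lower at an unadjusted p under 0.05 with all arrays, beside 5.79% and 0.935% of all probe sets, and 0 were called. Without replicate 5 the count was 3 higher and 0 lower of 20, beside 4.40% and 1.08% of all probe sets. Mki67, a marker of dividing cells, read 4.99, 6.11, 5.81, 4.82 and 5.79 at day 14 and 6.43, 6.99, 6.78, 5.72 and 7.47 at day 25. The groups overlapped, and replicate 5 was the highest of the 10 arrays. The difference was 1.17 ± 0.41 (adjusted p = 0.671) with all arrays and 0.98 ± 0.43 (adjusted p = 0.899) without replicate 5. Day 4 isografts held 9.20 ± 0.21. Ccna2 and Rrm2, of S phase, differed by 1.30 ± 0.46 (adjusted p = 0.671) and 1.02 ± 0.41 (adjusted p = 0.671), with replicate 5 again the highest. Pcna, the replication clamp, differed by 0.21 ± 0.24 (adjusted p = 0.918).

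The metabolic and stress lists had 0 calls. Of 44 oxidative phosphorylation genes, 37 had a 95% interval within 2-fold, beside 82.1% of all probe sets. Cox6a1, a subunit of cytochrome oxidase, differed by 0.03 ± 0.27 (adjusted p = 0.992, with a difference of 0.07 without replicate 5). Of 25 hypoxia and glycolysis genes, 23 had such an interval, and Aldoa, a glycolytic enzyme, differed by -0.03 ± 0.32 (adjusted p = 0.992, with a difference of 0.03 without replicate 5). Acly, which supplies carbon for fat and sterol synthesis, differed by -0.28 ± 0.40 (adjusted p = 0.94, with a difference of 0.04 without replicate 5) among 21 genes of that list. Calr, a chaperone of the secretory pathway, differed by 0.36 ± 0.19 (adjusted p = 0.76) among 20, and Herpud1, of the response to misfolded protein, by 0.75 ± 0.23 (adjusted p = 0.671). Of 20 immediate early and heat shock genes, 18 had differences above 0, or 16 with arrays centred on their medians. The shares over all probe sets were 63.9% and 43.5%. Dusp1, a phosphatase of that response, differed by 0.72 ± 0.29 (adjusted p = 0.671), and Hspb1, a small heat shock protein, by -0.11 ± 0.47 (adjusted p = 0.985, with a difference of -0.50 without replicate 5).

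Of 13 circadian clock genes, 0 were called, and arrays of a group differed widely. Per2, a repressor of the clock, read 5.03, 5.16, 4.75, 5.26 and 5.52 at day 14 and 4.94, 5.93, 7.80, 7.48 and 5.66 at day 25 (1.22 ± 0.50, adjusted p = 0.671). Dbp, a clock output gene, read 8.83, 8.78, 7.17, 9.50 and 5.99 at day 14 and 5.50, 8.97, 10.55, 10.84 and 9.65 at day 25. Npas2, an activator of the clock, differed by -0.91 ± 0.34 (adjusted p = 0.671), and Nr1d2, a nuclear receptor of the clock, by 0.58 ± 0.38 (adjusted p = 0.834). The labels used here give no hour of collection.

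Genes of tissues that lie beside the trachea were present. Tg, the thyroid hormone precursor, read 14.22, 12.24, 12.78, 13.43 and 9.26 at day 14 and 13.42, 13.97, 13.68, 13.90 and 11.60 at day 25 (0.93 ± 0.55, adjusted p = 0.816). The lowest arrays were day 14 replicate 5 and day 25 replicate 5. Pth, parathyroid hormone, read 12.63, 11.57, 10.38, 11.99 and 11.59 at day 14 and 12.71, 12.78, 12.66, 12.72 and 8.79 at day 25, with replicate 5 the lowest of all (0.30 ± 0.86, adjusted p = 0.979, with a difference of 1.09 without replicate 5). The 5 thyroid and parathyroid genes had medians of 0.72 with all arrays and 1.24 without replicate 5, with 0 called. The 14 fat genes had a list level of 6.4 in replicate 5 and 9.2 to 10.5 in the other day 25 arrays, and medians of -0.20 and 0.43. Car3, an enzyme abundant in fat and muscle, differed by -0.11 ± 0.71 (adjusted p = 0.99, with a difference of 0.25 without replicate 5). Myl1, a fast muscle light chain, differed by -0.14 ± 1.28 (adjusted p = 0.992, with a difference of -0.53 without replicate 5) with a 95% interval from -2.74 to 2.47. Hbb-b2, a haemoglobin chain, differed by -0.20 ± 0.31 (adjusted p = 0.941), the Y-linked Eif2s3y by 0.26 ± 0.25 (adjusted p = 0.889), and the ribosomal protein gene Rpl13a by -0.03 ± 0.12 (adjusted p = 0.984, with a difference of -0.07 without replicate 5).

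**Figure D4:**
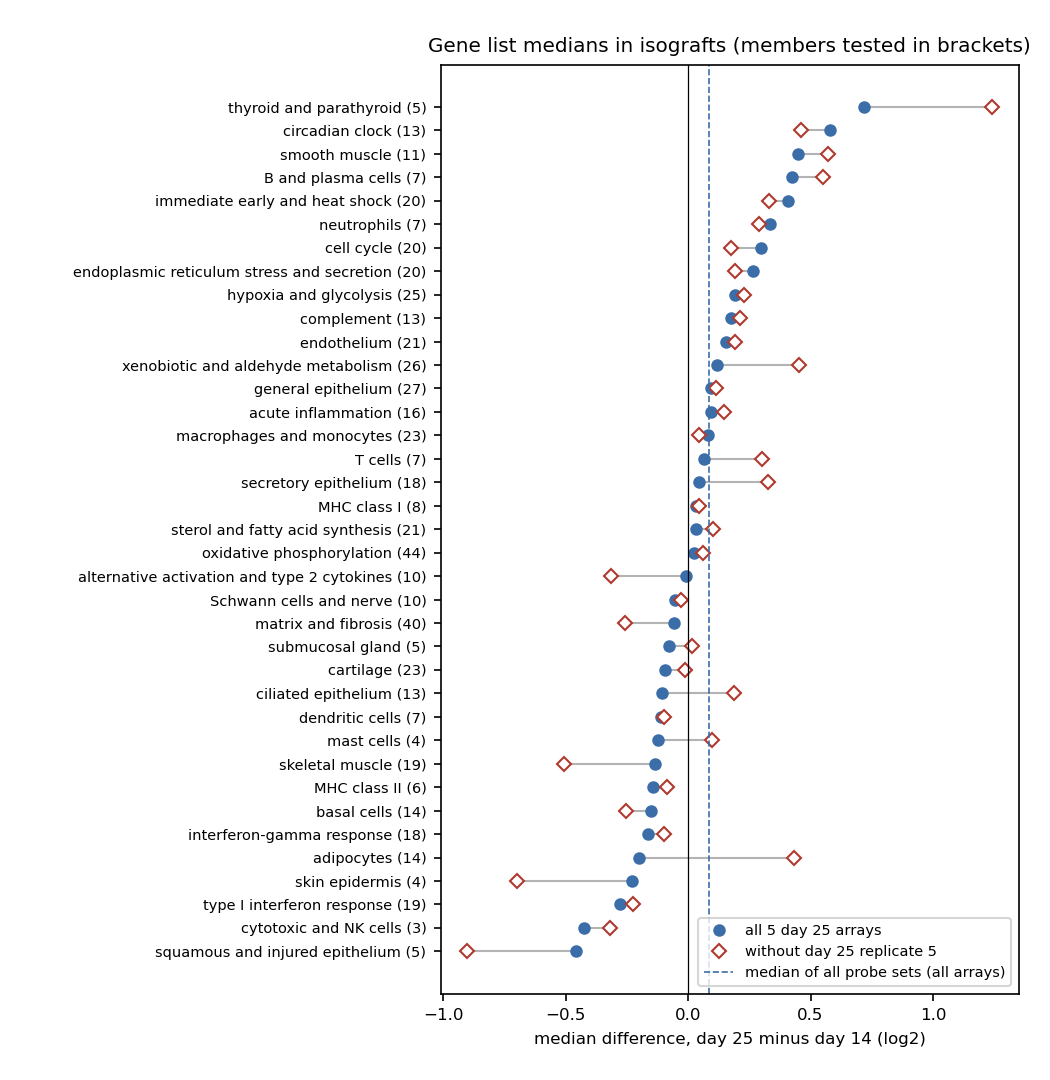
Median difference, day 25 minus day 14 (log2), over the tested members of each gene list, with all arrays and without day 25 replicate 5; the dashed line is the median over all probe sets (0.09). The median of the fat list is -0.20 with all arrays and 0.43 without replicate 5, and that of the squamous list is -0.46 and -0.90.

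The late change in isografts was then compared with that in allografts, as the day 25 minus day 14 difference in isografts minus the same difference in allografts. Of 12085 probe sets, 113 (0.935%) were called, 63 above 0 (0.521%) and 50 below 0 (0.414%). Without day 25 isograft replicate 5 there were 96 (0.794%), 86 of them called in both fits. Among the 113, the change was larger in size in allografts for 110, and under log2 0.5 in isografts for 74. The median size of the change was 0.30 in isografts and 2.29 in allografts. These sizes follow in part from how the 113 were picked, since 0 probe sets were called for the isograft change alone. Over all tested probe sets the median size in isografts was 0.18. The filter used isograft arrays only, so genes detected in allografts alone are not counted. With arrays centred on 10 reference genes the split became 92 above 0 and 50 below.

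Above 0 were 9 of 27 general epithelial genes and 4 of 18 secretory genes, with 0 below in either list. Ltf was at 13.59 and 13.52 in isografts and at 9.49 ± 1.70 and 3.55 ± 1.22 (SD, n = 5) in allografts, a difference of changes of 5.86 ± 0.75, adjusted p = 1.67e-05. Krt19, a keratin of simple epithelium, was at 8.80 and 8.90 in isografts and at 7.69 ± 1.84 and 2.40 ± 0.12 in allografts (5.38 ± 0.86, adjusted p = 0.000324). In both genes the isograft means were close to each other and the allograft means were not. The keratins Krt7 and Krt18 gave 4.95 ± 0.75 and 3.83 ± 0.50, Wfdc2, a secreted airway protein, 4.80 ± 0.75, Dsp, a desmosome linker, 4.30 ± 0.82, and Krt5 4.44 ± 0.83. Bpifa1 was at 6.91 ± 1.47 and 3.09 ± 0.20 in allografts (3.92 ± 0.60, adjusted p = 0.000221). Mki67 was at 8.04 and 6.84 in allografts (2.37 ± 0.59, adjusted p = 0.0389), among 4 of 20 cell cycle genes called above 0. Without day 25 isograft replicate 5 the Mki67 call was lost (adjusted p = 0.0833) and the list had 2.

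Below 0 were 10 of 23 cartilage genes, with 0 above. Without day 25 isograft replicate 5 there were 8 below and 0 above. Chad, a cartilage matrix protein, was at 11.33 and 11.28 in isografts and at 7.50 ± 1.09 and 11.56 ± 0.74 in allografts (-4.11 ± 0.67, adjusted p = 0.000499). Otor, Mia, Col9a1, Matn4 and Cnmd, which chondrocytes also make, gave -4.88, -4.55, -4.42, -4.23 and -3.78. Penk, an opioid peptide precursor, was at 10.10 and 9.92 in isografts and at 5.49 ± 0.91 and 10.43 ± 0.86 in allografts (-5.12 ± 0.63, adjusted p = 1.62e-05). Of the Ighm probe sets, 2 were also called below 0, at -5.35 ± 0.69 and -5.11 ± 0.65 (adjusted p = 1.67e-05 for each). They were at 6.42 and 5.97, and at 5.90 and 5.33, in isografts, and at 6.74 and 11.63, and at 5.83 and 10.36, in allografts. Both have the suffix for shared probes, and the Ighm probe set with the highest mean gave -0.79 ± 1.08, adjusted p = 0.936. Egfl6, a secreted matrix protein, gave -3.83 ± 0.53, adjusted p = 5.52e-05. Peg3 was called too (-2.29 ± 0.34, adjusted p = 0.000198), at 7.32 and 8.51 in allografts. Of the 5 genes called without replicate 5 in isografts, none was called here with all arrays. Without that replicate Satb1, Dcpp1 and Mest were called (adjusted p = 0.0356, 0.00329 and 0.0203, limma). The other Satb1 probe set was not called even then (adjusted p = 0.0696, limma).

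**Figure D5:**
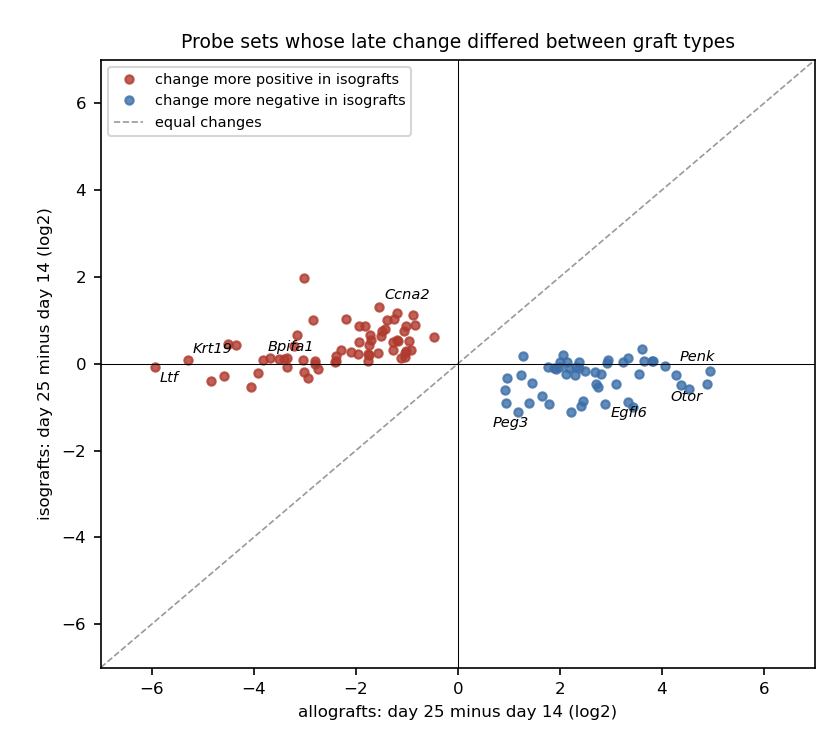
Day 25 minus day 14 change (log2) in allografts and in isografts for the 113 probe sets whose change differed between the graft types; each point is 1 probe set. Most points lie far from 0 along the allograft axis and near 0 along the isograft axis, with median sizes of 2.29 and 0.30.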

How the data were processed

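Affymetrix arrays of 35 tracheal RNA samples were used, 5 in each of 7 groups. The deposited values are log2 expression per probe set, made with GCRMA 1.1.3 per the submitters' processing notes; GCRMA corrects background from probe sequence and equalizes arrays, so values near background carry little order. Control probe sets were left out. Genes came from the platform annotation, and of 12085 tested probe sets 11078 had 1 gene, 438 several and 569 none. Limma 3.58.1 (R 4.3.3) was fitted to all 7 groups (28 residual degrees of freedom, prior 4.20), with Benjamini-Hochberg adjustment, and called means an adjusted p under 0.05. The code was tested on simulated data. Where a gene had several probe sets, the brightest on average in the 10 arrays stood for it. Named were genes called in both fits without overlap (0), the 2 largest called members of a list or else its most abundant member, 14 fixed markers, and genes called with all arrays but not without day 25 replicate 5 (0). Also named were genes called without day 25 replicate 5, some genes of smallest p, and the largest differences from allografts. Further genes were chosen after their values were seen. Members and lists were chosen with earlier results of these data known. Arrays have no read depth; their number limits precision.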

Additional observations from a re-analysis of the deposited data

Results flagged for a closer look

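At days 14 and 25, 298 groups of 5 values were examined. They were the genes named in the text, the others of the naming rule, and list levels. In 25 groups the gap of the highest or lowest array to the nearest, over the whole range, exceeded 0.71. Chance gives that in about 1 of 20 groups that are independent and not chosen by their values. Here many genes were chosen after their values were seen, and all groups share the same arrays. The count of 25 is therefore no test against chance. Of the 25 groups, 17 were flagged for day 25 replicate 5. It was the highest day 25 array for Fscn1 (10.88), Hspb1 (11.16), Dmkn (11.05), Lor (10.85), Krt13 (11.29), Chil4 (12.99) and C1qtnf3 (8.88), and for the mean levels of the squamous (8.78) and skin (8.75) lists. It was the lowest for Ifi27l2a (8.74), Tg (11.60), Pth (8.79), Jchain (4.23) and Scgb1a1 (11.49), and for the ciliated (5.75), secretory (9.60) and thyroid (7.39) lists. Of the other 8, day 25 replicate 1 was lowest for Col10a1 (10.29), Nr1d2 (7.92) and the cartilage list (7.06) and highest for Il1b (11.49). At day 14, replicate 5 was lowest for Myl1 (7.23), replicate 3 lowest for Krt10 (6.02), replicate 1 highest for Cd8b1 (4.58) and replicate 4 highest for Herpud1 (9.21).

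The late change differed between isografts and allografts, by the interaction term of limma, for 16 genes that are the 8 largest in each direction among probe sets called in all 20 fits that left out 1 array, counting only the probe set of a named gene with the highest mean. The differences of changes were 5.86 for Ltf, 5.38 for Krt19, 4.95 for Krt7, 4.80 for Wfdc2, 4.44 for Krt5, 4.30 for Dsp, 3.92 for Bpifa1 and 3.83 for Krt18. Below 0 they were -5.12 for Penk, -4.88 for Otor, -4.55 for Mia, -4.42 for Col9a1, -4.23 for Matn4, -4.11 for Chad, -3.83 for Egfl6 and -3.78 for Cnmd. Outside that choice, 2 further Ighm probe sets gave -5.35 and -5.11, Peg3 -2.29 and Mki67 2.37, the last not called without day 25 isograft replicate 5 (adjusted p = 0.0833).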

How the results depend on the processing

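With all 10 arrays the count of called probe sets was 0 in each fit with another filter, variance model, array weights, scaling or threshold, and 0 to 8 when 1 isograft array was left out (2 without day 25 replicate 1, 1 without replicate 2, 8 without replicate 5). It was 4 in the 6 arrays with low squamous markers, an alternative chosen after seeing the data. Without day 25 replicate 5, the count of 8 became 29 with array weights, 3 with a filter at log2 7, 3 with median centring, 3 at an adjusted p under 0.01, 0 when the 9 arrays were fitted alone, and 0 to 15 with a further array left out. These alternatives to the fit without replicate 5 were added after seeing the data, and the cause of each change was not tested. The count of probe sets whose change differed from allografts, 113, was 56 at an adjusted p under 0.01 and 80 to 143 with 1 array left out. Of 2120 values of named genes under alternatives, 98 had the other sign, in 34 of 102 genes, and 6 were called. Of 556 differences from allografts, 17 were not called: Dsp as the mean of its probe sets (adjusted p = 0.0957), and otherwise Mki67, with adjusted p up to 0.162 (array weights). With the replicate number as a block, 0 probe sets were called with all arrays, 5 without replicate 5 and 124 for the difference from allografts. Same-numbered arrays had deviations that correlated at -0.18 to 0.25, so the numbers were not taken as pairs.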

Other observations

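Genes that are expressed from a single parental copy were examined after Mest and Peg3 had been seen, so the list gets no test. Of 14 imprinted genes tested, 2 had differences above 0 with all arrays and 5 without day 25 replicate 5, beside 63.9% and 66.2% of all probe sets. The median was -0.44 and -0.34, beside 0.09 for all probe sets in each fit. At an unadjusted p under 0.05, 3 were lower with all arrays (0.935% of all probe sets) and 7 without replicate 5 (1.08%). Mest and Peg3, which prompted the list, are members and are counted among the lower genes in both fits. These counts therefore partly restate those genes. Igf2, a fetal growth factor, read 8.41, 9.09, 9.26, 9.83 and 8.73 at day 14 and 6.52, 7.89, 8.83, 7.76 and 9.39 at day 25, with overlap between the groups. Meg3, a long noncoding RNA, read 11.85, 11.24, 11.25, 11.41 and 11.65 at day 14 and 10.80, 10.78, 10.74, 11.28 and 11.34 at day 25, also with overlap.

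Dntt, the enzyme that adds bases to antigen receptor joints in immature lymphocytes, read 6.14 in day 25 replicate 2 and 3.50 to 4.92 in the other 9 isograft arrays.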
